A study of Mus musculus with 91 samples.

Results

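The transcription factor NRF2 (gene Nfe2l2) drives a set of genes that protect cells from oxidants and reactive chemicals. The adaptor protein KEAP1 holds NRF2 in the cytoplasm and marks it for degradation until electrophiles or oxidants modify KEAP1, after which NRF2 enters the nucleus and binds antioxidant response elements together with small MAF proteins. In liver, some of these genes are also known to respond to drugs that activate the nuclear receptors CAR and PXR. The expression of 10 NRF2 target genes was followed here: Nqo1 and Cbr3 (quinone and carbonyl reduction), Gclc, Gclm, Gsr and Gpx2 (glutathione synthesis, recycling and use), Txnrd1 and Srxn1 (thioredoxin system), and Ephx1 and Ugdh (epoxide hydrolysis and supply of glucuronic acid). They were chosen by symbol, as a list of known targets, and all 10 were measured, among 18193 genes in all. They were read by 18 probe sets, and the brightest probe set of a gene, by its mean across the arrays, stood for it.

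RNA from the livers of 91 male mice was measured on arrays in 19 groups, each array being a sample of its own in the labels. The strain is labelled C57BL (C57BL/6J in the study's design), except for the C57BL/hCAR/hPXR groups. C57BL mice received phenobarbital (PB, 0.05% w/v in drinking water) for 28 or 56 days with water (H2O) controls of the same duration. Other C57BL mice were treated for 28 days by gavage with 1,4-dichlorobenzene (DCB, 600 mg/kg) or cyproterone acetate (CPA, 160 mg/kg), both set against 1 corn oil (CO) group. Further C57BL groups received Wy-14643 (WY, 100 mg/kg by gavage), piperonyl butoxide (PBO, 600 mg/kg intraperitoneally), CITCO (10 mg/kg intraperitoneally), pioglitazone (Pio, 100 mg/kg by gavage) or methapyrilene (MePy, 1000 ppm in food) for 28 days. Each had its own carboxymethylcellulose (CMC) cohort, named Co1 for WY, Co2 for PBO, Co4 for CITCO, Co5 for Pio and Co3 for MePy. CITCO at 10 mg/kg was also given for 28 days to C57BL/hCAR/hPXR mice, whose labels name the human forms of CAR and PXR, with CMC controls of the same strain. The labels name no route for the CMC cohorts, and the control of the food group was a CMC cohort. Groups held 5 livers, except PBO, Co1, Co3 and Co5, which held 4. Values are log2 expression values, so that a difference of 1 is a 2-fold change, and a value is compared only with the same gene in other livers.

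Marker genes leave a doubt about 2 labels. In the livers labelled pioglitazone, an agonist of PPARγ, the PPARγ targets Fabp4 (difference -0.33) and Cidec (-0.60) did not pass the test, while Cyp2b10, the classical CAR target of mouse liver, was 6.06 higher (limma, adjusted p = 1.17e-15). In the livers labelled methapyrilene, Fabp4 was 3.37 higher (limma, adjusted p = 0.000127) and Cidec 2.55 higher (limma, adjusted p = 0.000348). Neither gene is particular to PPARγ agonists here, since Fabp4 (5.14; limma, adjusted p = 7.82e-12) and Cidec (1.41; limma, adjusted p = 0.0265) also rose with WY, an agonist of PPARα. Fabp4 and Cidec were chosen for this check after their values had been seen. Both groups are therefore called by their labels below. All livers showed high hepatocyte markers, with a mean of 8 such genes between 13.47 and 14.28 in every liver. With PB at 56 days that mean was 13.79 to 13.86, below the 13.9 to 14.13 of the matching water livers. Its part in the PB results was not tested. Array medians lay between 5.18 and 5.36. Over the 10 treated comparisons no cholangiocyte marker passed of 7 measured. In the stellate list Col3a1 fell with CPA, and with WY Lyve1 of the endothelial list rose and Cela1 of the pancreas acinar list fell; no other marker of these 3 lists passed.

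Of the 100 values formed by 10 genes in 10 treated-against-control comparisons, 15 rose, 1 fell and 84 did not pass an adjusted p of 0.05 in limma's moderated test, adjusted over all genes. DCB gave 7 of the rises, more than any other treatment. PB gave 3 at 56 days and 2 at 28 days, PBO gave 2, CPA gave 1, and the only fall was Gclm with WY. No gene of the list passed in the 4 remaining comparisons (CITCO in both strains, labelled pioglitazone and labelled methapyrilene), where limma's unadjusted p was below 0.05 for 2, 0, 0 and 2 of the 10 (CITCO in hCAR/hPXR and in C57BL mice, then the labelled groups in that order), and for 7%, 4.8%, 7.66% and 6.73% of all genes. Gclc and Txnrd1 passed in none of the 10. In bulk liver, fewer cells of a type and less RNA per cell cannot be told apart.

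**Figure D1:**
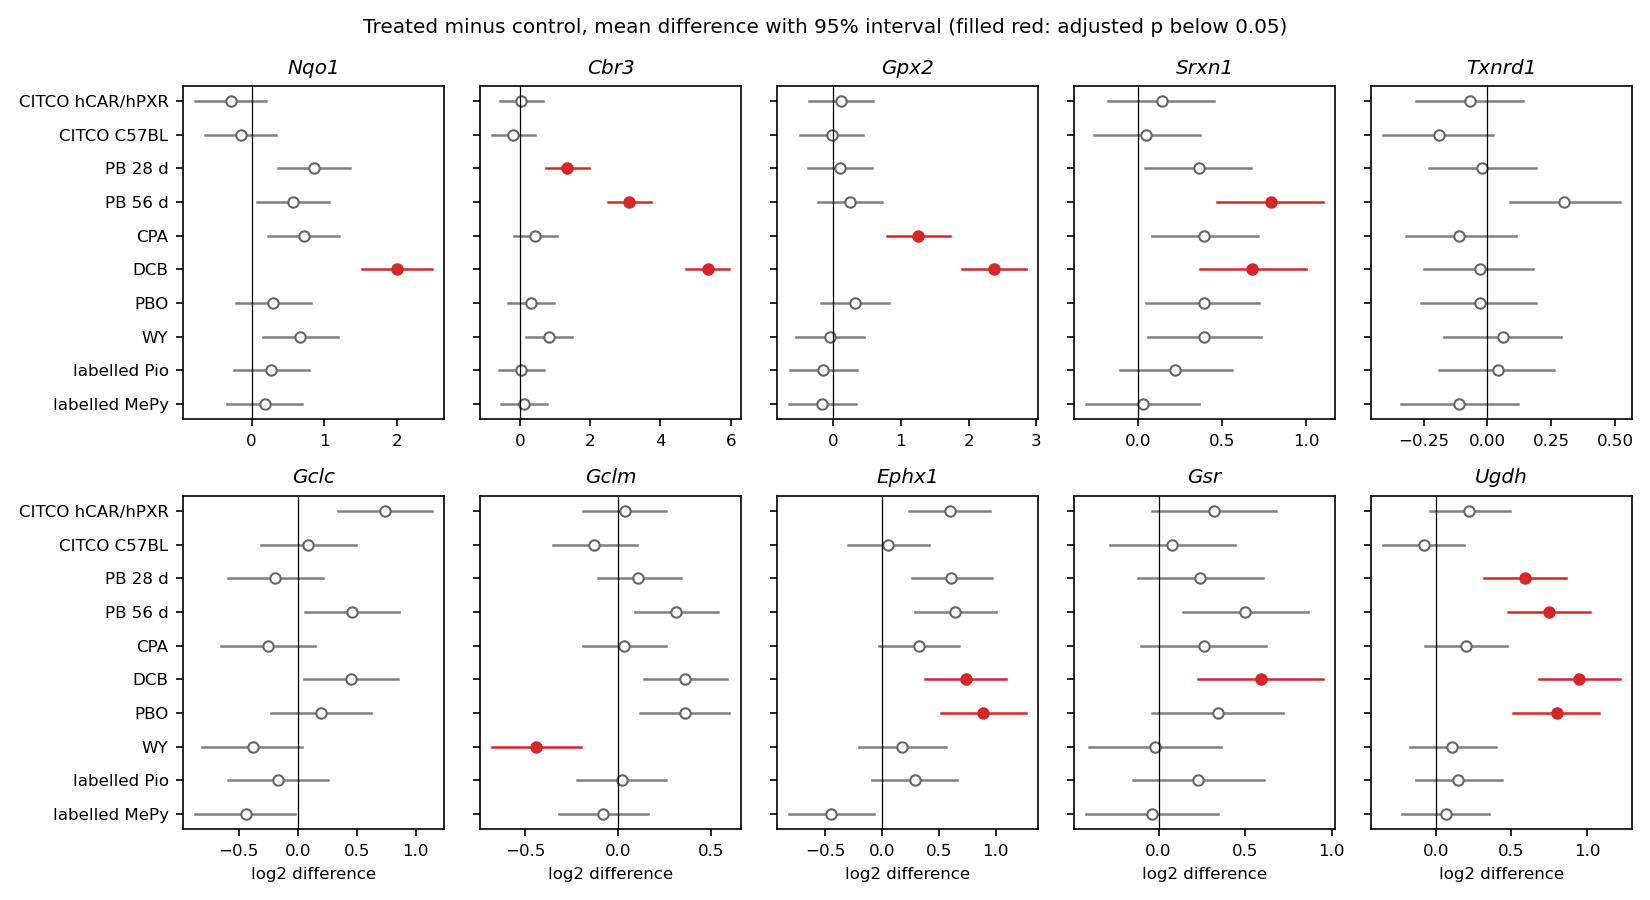
Mean log2 difference between treated and control livers (x axis) for each of the 10 genes in the 10 comparisons (y axis), with 95% intervals; filled red points passed an adjusted p of 0.05 and the x axes differ between panels. Cbr3 reaches 5.35 with DCB and 3.12 with PB at 56 days, while the Txnrd1 differences lie between -0.19 and 0.30.

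Cbr3, a carbonyl reductase, changed most. In the DCB livers Cbr3 stood at 10.99, 11.64, 10.50, 10.60 and 11.43, against 5.58, 5.77, 5.95, 5.56 and 5.57 in corn oil. All treated livers thus lay far above all controls, and the difference was 5.35 (SE 0.309, 40.7-fold; limma, adjusted p = 1.21e-24). It remained between 5.19 and 5.48 when any 1 liver of either group was left out. With DCB, 7 of the 10 genes rose, where 2.15% of all genes rose. For 5 of the 10 (Nqo1, Cbr3, Gpx2, Ephx1 and Ugdh) every treated liver lay above every control, as for 2.35% of all genes. Of 8 hepatocyte markers 3 fell with DCB (Hnf4a by 0.54, Fgb by 0.37 and Apoa1 by 0.15), where 1.67% of all genes fell. Their part in these results was not tested.

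Cbr3 also rose with PB. At 56 days the livers read 6.80, 8.0, 8.70, 8.65 and 11.27, against 5.57, 6.18, 5.36, 5.16 and 5.54 in water. The groups did not overlap, and replicate 5 reached the DCB range. The Cbr3 difference was 3.12 (SE 0.309, 8.70-fold; limma, adjusted p = 1.78e-12), and 2.47 without replicate 5. This SE rests on the spread shared by all 19 groups, while the SD was 1.64 in these PB livers and 0.381 in water. Under the alternatives other than leaving out a liver, the adjusted p in limma was 0.0244 at most. At 28 days Cbr3 stood at 7.80, 6.82, 5.99, 6.92 and 7.07, against 6.32, 5.61, 5.33, 5.14 and 5.44. A PB liver lay below the highest control, and the difference was 1.35 (SE 0.309, 2.55-fold; limma, adjusted p = 0.00954). It no longer passed without replicate 1 of the PB livers (1.13, limma, adjusted p = 0.091). The Cbr3 response was 1.77 larger at 56 than at 28 days (95% interval 0.90 to 2.64), which did not pass (limma, unadjusted p = 0.000118, adjusted p = 0.259). The interval rests on the same shared spread. For that difference in response 0% of all genes passed in limma, and 879 genes, 3 of the 10 among them, had an unadjusted p below 0.05. The titles of the 28-day PB arrays end in "(2)", which the labels do not explain. With PB, 2 of the 10 genes rose at 28 days (0.572% of all genes rose) and 3 at 56 days (0.429%).

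In the other groups Cbr3 stayed low. In the 42 control livers it ran from 4.79 to 6.32. CPA livers read 6.63, 6.12, 5.65, 6.42 and 5.81, which overlapped corn oil (difference 0.44, 95% interval -0.17 to 1.06). WY livers read 5.88, 5.41, 6.20, 5.41 and 6.60, all above the Co1 livers at 5.2, 4.94, 5.09 and 5.02. The WY difference of 0.84 (95% interval 0.19 to 1.49) did not pass (limma, adjusted p = 0.086). All CITCO, PBO, labelled pioglitazone and labelled methapyrilene livers lay between 4.94 and 5.82.

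The 250 bases before the Cbr3 start are shown because no other gene of the list changed as much. They lie on the plus strand of GRCm38.p6 (RefSeq), at chr16:93682969-93683218, upstream of the gene:
Cbr3: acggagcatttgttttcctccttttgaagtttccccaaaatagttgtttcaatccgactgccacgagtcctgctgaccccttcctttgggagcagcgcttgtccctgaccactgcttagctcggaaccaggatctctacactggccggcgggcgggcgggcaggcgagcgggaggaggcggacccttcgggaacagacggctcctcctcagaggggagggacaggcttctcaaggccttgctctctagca
The core of the antioxidant response element, TGACNNNGC, was searched on both strands and is not spelled in this window. Sequence farther upstream was not searched.

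Nqo1, which reduces quinones by a pair of electrons and so avoids semiquinone radicals, rose with DCB and in no other treated-against-control comparison. The DCB livers read 9.36, 8.94, 8.15, 8.77 and 9.39, against 7.13, 7.09, 7.51, 6.41 and 6.44 in corn oil. The groups did not overlap, and the difference was 2.00 (SE 0.245, 4.01-fold; limma, adjusted p = 3.24e-09). PB livers at 28 days read 8.13, 7.41, 7.52, 7.62 and 7.59, against 7.41, 6.75, 6.22, 6.85 and 6.74. Their lowest value equalled the highest control to 2 decimals, and the difference of 0.86 did not pass (limma, adjusted p = 0.068). It passed without replicate 1 of the water livers, which read 7.41 (1.01, limma, adjusted p = 0.034). The 28-day difference also passed with array weights (0.98, limma, adjusted p = 0.00148). The same held when only these PB and water livers were fitted (limma, adjusted p = 0.0249). At 56 days the PB livers read 7.36, 7.88, 7.95, 7.67 and 8.84. The matching water livers were spread widely, at 6.92, 7.84, 6.86, 6.96 and 8.26. In the 2 high water livers, replicates 2 and 5, Cyp2b10 was also the highest of that group, at 7.12 and 7.72 against 5.89 to 6.12 in the others; its part in the result was not tested. In all WY livers Nqo1 (7.25 to 7.76) lay above Co1 (6.62 to 7.0), as did Cbr3, 2 of 10 genes where 4.09% of all genes did, and the Nqo1 difference of 0.67 did not pass (limma, adjusted p = 0.0796). It passed when only the WY and Co1 livers were fitted (limma, adjusted p = 0.0177).

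**Figure D2:**
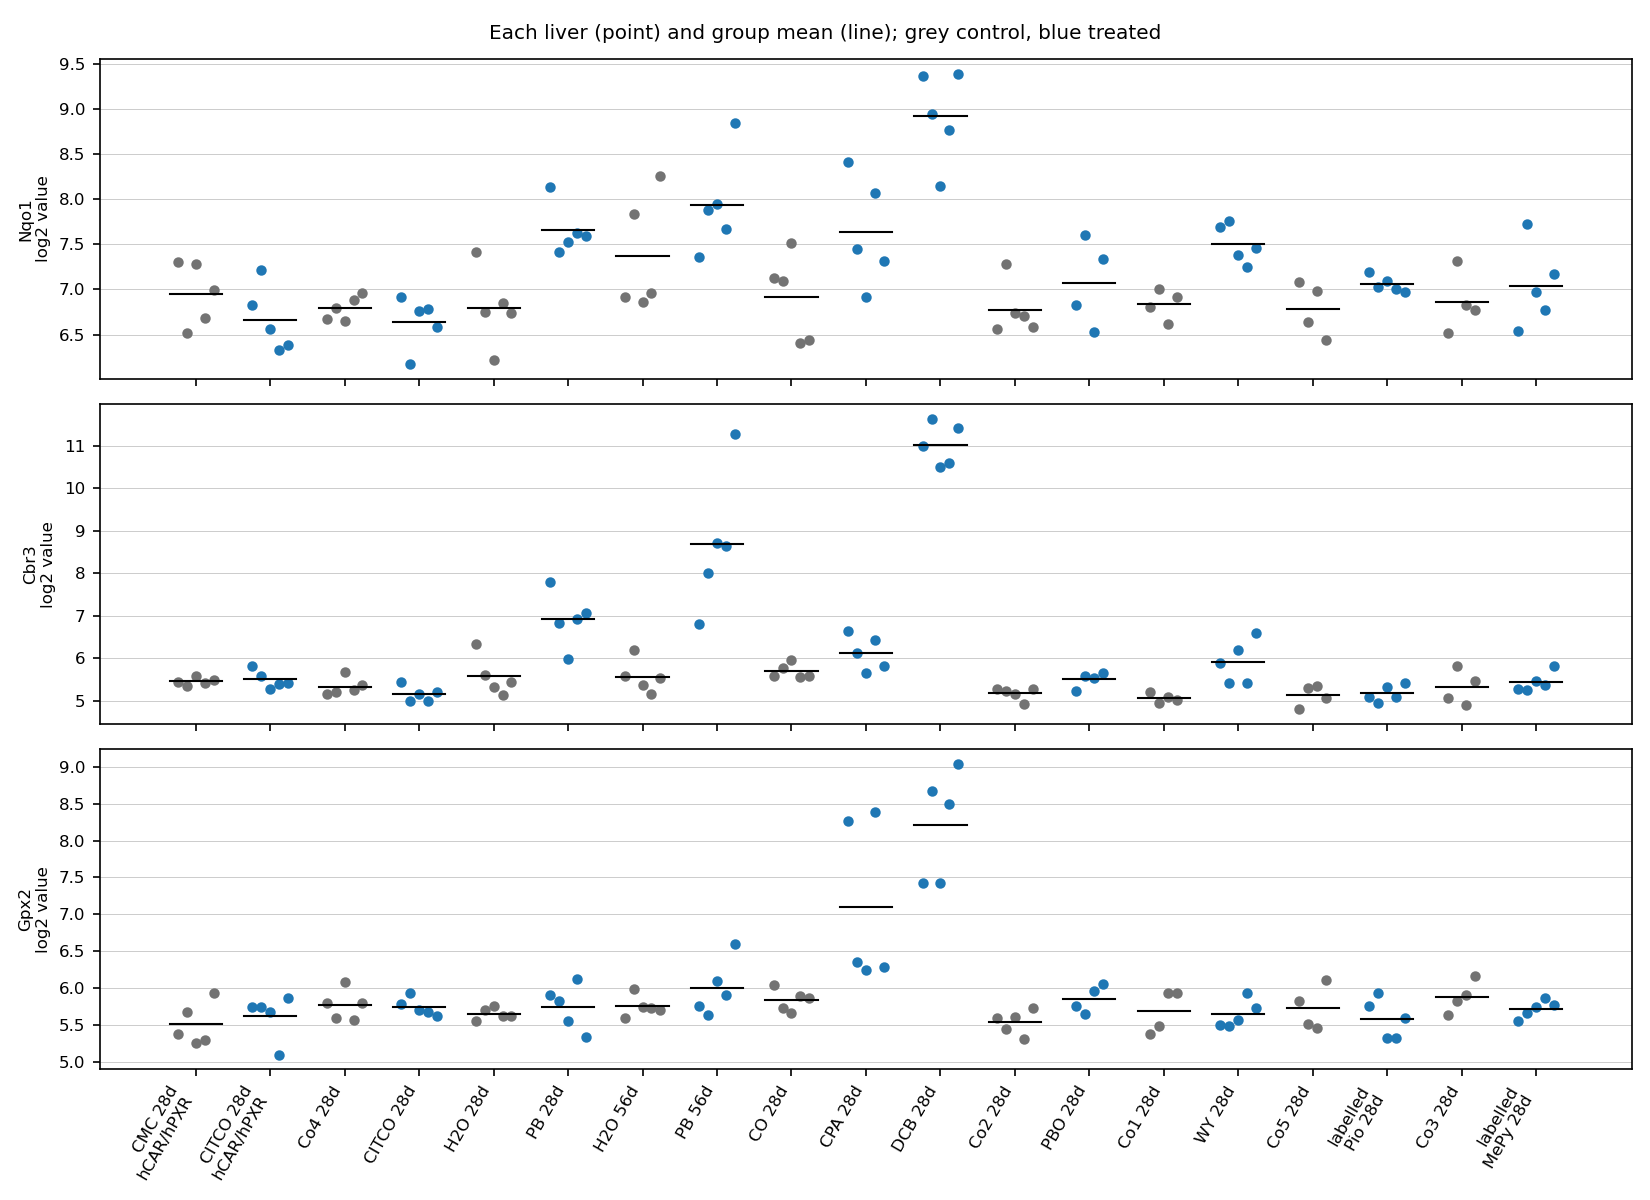
Log2 value of Nqo1, Cbr3 and Gpx2 (y axes) in each liver, with group means as lines, for each control group (grey) followed by its treated groups (blue) along the x axis. The DCB livers lie at 10.50 or above for Cbr3, where no control liver exceeds 6.32.

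Among the genes of glutathione use, Gpx2, a glutathione peroxidase best known from gut epithelium, rose with DCB and with CPA. The DCB livers read 7.43, 8.67, 7.43, 8.50 and 9.04, against 6.04, 5.73, 5.66, 5.89 and 5.86 in corn oil. The Gpx2 difference was 2.38 (SE 0.235, 5.21-fold; limma, adjusted p = 1.17e-12), without overlap. Of 7 markers of gut epithelium none passed with DCB in limma, and their mean level was 5.75 to 6.24 in DCB livers and 5.94 to 6.29 in corn oil. In every other group except CPA, no liver exceeded 6.60.

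The CPA livers split in Gpx2. Replicates 1 and 4 read 8.26 and 8.38, and the other 3 read 6.35, 6.24 and 6.28. All 5 lay above the corn oil livers, as for 2.52% of all genes, and the difference was 1.26 (SE 0.235, 2.40-fold; limma, adjusted p = 0.00014). It was 1 of 10 genes of the list to rise with CPA, where 2.62% of all genes rose. Fitted on the CPA and corn oil livers alone, so that these groups set the spread, the CPA result did not pass (limma, adjusted p = 0.147). The same 2 CPA livers were the highest of the group in 6 of the 10 genes: Gpx2, Ugdh (12.75 and 12.44), Nqo1 (8.41 and 8.07, the others 6.92 to 7.45), Cbr3 (6.63 and 6.42), Ephx1 (13.18 and 13.03) and Gsr (10.21 and 10.29). In the other 4 they were not: Gclc was highest in replicate 3 (12.63) and read 11.77 in replicate 4, Gclm read 11.60 in replicates 2 and 4 and 11.97 to 11.98 in the rest, Srxn1 read 8.50 in replicate 1 within a range of 8.45 to 8.78, and Txnrd1 was highest in replicate 5 (10.28). They were also the highest in Cyp2b10, at 13.02 and 12.72 against 9.76, 10.71 and 11.24. Hnf4a (-0.47) and Apoa1 (-0.14), 2 of 8 hepatocyte markers, fell with CPA, and 3 of 10 acute phase genes (Lcn2, Orm2 and Apcs) rose. Among all genes 2.7% fell and 2.62% rose with CPA. The mean level of the 10 acute phase genes ran from 10.50 to 13.78 in CPA livers and from 9.72 to 11.64 in corn oil. Their part in the result was not tested. Nqo1 itself, 0.72 higher with CPA, did not pass, but did without CPA replicate 3 (0.90; limma, adjusted p = 0.0211) or corn oil replicate 3 (0.86; limma, adjusted p = 0.0369).

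**Figure D3:**
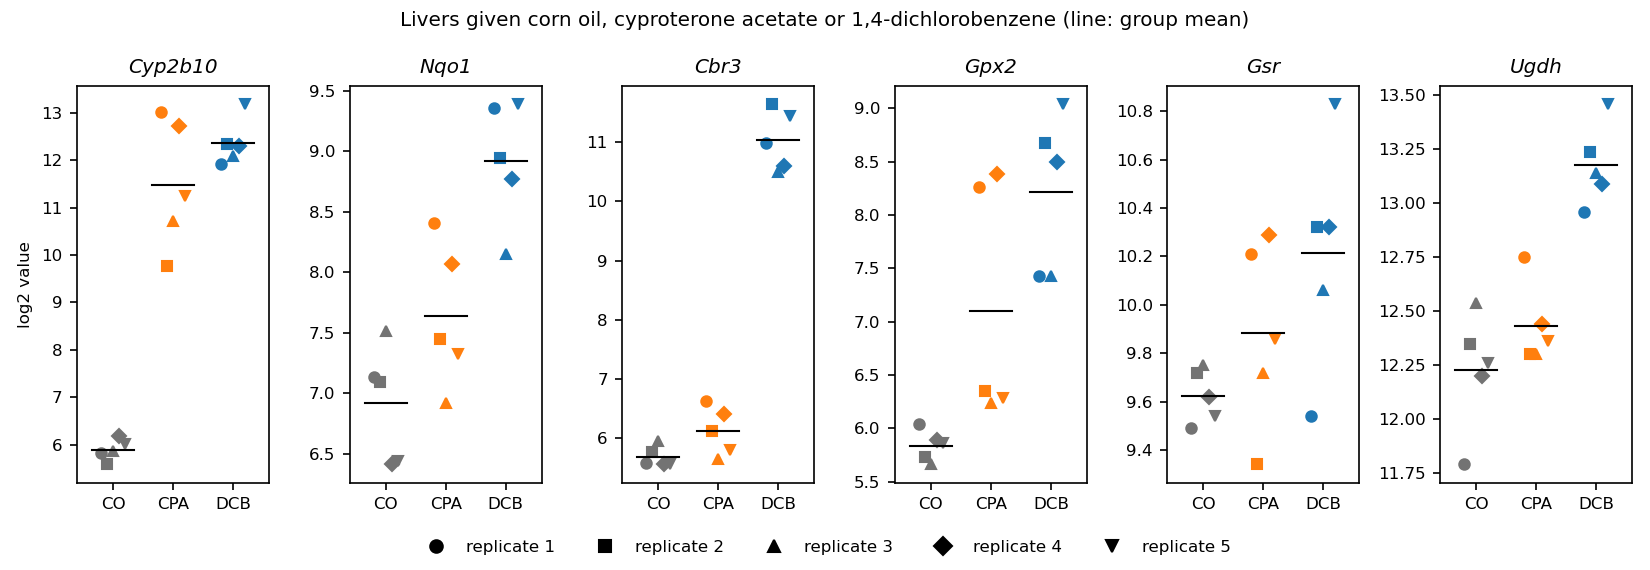
Log2 values (y axes) of Cyp2b10 and 5 genes of the list in each corn oil, CPA and DCB liver (x axis), with 1 symbol per replicate number, which names a liver within its group, and lines at the group means. CPA replicates 1 and 4 lie highest in Cyp2b10 (13.02 and 12.72), Nqo1, Cbr3, Gpx2 and Gsr, while Cbr3 in CPA does not exceed 6.63.

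Gsr, which regenerates reduced glutathione, rose with DCB. The DCB livers read 9.54, 10.32, 10.06, 10.32 and 10.83, against 9.49, 9.72, 9.75, 9.62 and 9.54 in corn oil. Replicate 1 of DCB lay inside the control range, and the difference was 0.59 (SE 0.18, 1.51-fold; limma, adjusted p = 0.043). This call was lost in 8 of 10 refits that left out 1 liver of the comparison, where the difference ran from 0.44 to 0.76. It was also lost when only the DCB and corn oil livers were fitted (limma, adjusted p = 0.15), after centring each array (limma, adjusted p = 0.0521) and with the mean of both Gsr probe sets (limma, adjusted p = 0.0632). The second Gsr probe set gave 0.63 (limma over all probe sets, adjusted p = 0.143). At 56 days of PB all 5 livers (9.67 to 10.29) lay above all water livers (9.30 to 9.63), but the Gsr difference of 0.50 did not pass. With array weights it did (0.49, limma, adjusted p = 0.0261).

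Gclc and Gclm encode the catalytic and modifier subunits of glutamate-cysteine ligase, the rate-limiting enzyme of glutathione synthesis. With DCB, Gclm read 11.69, 12.27, 12.30, 12.10 and 12.41, against 11.73, 11.92, 11.91, 11.73 and 11.67 in corn oil. Replicate 1 of DCB lay within the control range, and the Gclm difference of 0.36 missed the threshold (SE 0.113; limma, adjusted p = 0.051). Without that liver it was 0.48 (limma, adjusted p = 0.00668). Gclc with DCB read 12.19, 13.19, 13.34, 12.28 and 13.11, overlapping corn oil (11.98 to 12.72), with a difference of 0.45 (limma, adjusted p = 0.239). With array weights both genes passed with DCB, Gclc at 0.65 (limma, adjusted p = 0.0207) and Gclm at 0.49 (limma, adjusted p = 0.00016). Gclm also passed with a minimum mean of 5 (limma, adjusted p = 0.0365). With PB at 56 days both subunits lay above all their controls, Gclc at 12.79 to 13.02 against 12.10 to 12.77 and Gclm at 11.88 to 12.07 against 11.59 to 11.83. Neither passed (Gclc 0.46, Gclm 0.31). Gclm did pass with array weights (0.30, limma, adjusted p = 0.035). It also passed when only the PB and water livers were fitted (limma, adjusted p = 0.0378).

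Gclm was the only gene of the list to fall, with WY, the agonist of PPARα. The WY livers read 11.45, 10.90, 11.33, 11.28 and 11.05, against 11.62, 11.43, 11.66 and 11.85 in Co1. A WY liver overlapped the controls, and the difference was -0.44 (SE 0.12, 1.35-fold lower; limma, adjusted p = 0.0102). With WY 5.09% of all genes fell. The call was lost without replicate 4 of Co1 or replicate 2 of WY (limma, adjusted p up to 0.0585), and the other Gclm probe set gave -0.17. It was also lost when only the WY and Co1 livers were fitted (limma, adjusted p = 0.0749) and with the mean of all Gclm probe sets (-0.30; limma, adjusted p = 0.102). In the same comparison 5 of 8 macrophage markers rose (mean level 7.66 to 9.0 against 6.96 to 7.62) and 4 of 10 acute phase genes rose (8.76 to 13.69 against 8.84 to 9.89), where 5.55% of all genes rose. Their part in the Gclm difference was not tested.

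In the thioredoxin system, Srxn1, which restores overoxidised peroxiredoxins, rose with DCB and with PB at 56 days. The PB livers read 8.68, 9.17, 9.22, 9.06 and 9.79, against 8.40, 8.66, 8.37, 8.05 and 8.50 in water. All lay above all controls, and the difference was 0.79 (SE 0.159, 1.73-fold; limma, adjusted p = 0.00173). The DCB livers read 8.35, 9.50, 8.75, 8.34 and 9.32, against 8.16, 8.51, 8.37, 8.01 and 7.80. These groups overlapped, and the Srxn1 difference was 0.68 (SE 0.159, 1.60-fold; limma, adjusted p = 0.00347). Both calls missed the threshold when only the groups of the comparison were fitted (limma, adjusted p = 0.0538 for PB and 0.182 for DCB). The corn oil group had the lowest Srxn1 mean of all groups, 8.17. Of the 4 Srxn1 probe sets, 3 passed with PB at 56 days and 2 with DCB.

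Txnrd1, the cytosolic thioredoxin reductase, passed in none of the 10 treated-against-control comparisons. With DCB it read 9.91, 10.58, 10.43, 9.97 and 10.33, against 10.19, 10.32, 10.33, 10.24 and 10.30 in corn oil, a difference of -0.03 (95% interval -0.25 to 0.18). With PB at 56 days all livers (10.31 to 10.64) lay above all water livers (10.12 to 10.16), with a difference of 0.30 (limma, adjusted p = 0.314). In the alternative fit with array weights this PB difference did pass (limma, adjusted p = 0.0337). The Txnrd1 probe sets disagreed with WY, where a dimmer probe set fell by 0.61 (limma over all probe sets, adjusted p = 0.0336) and the probe set used here gave 0.06.

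Ugdh, which makes the UDP-glucuronic acid used in glucuronidation, rose in 4 comparisons, more than any other gene of the list. The DCB livers read 12.96, 13.24, 13.14, 13.09 and 13.46, against 11.79, 12.35, 12.54, 12.20 and 12.26 in corn oil. The difference was 0.95 (SE 0.135, 1.93-fold; limma, adjusted p = 3.59e-07), without overlap. With PB at 56 days Ugdh read 12.44, 12.57, 12.74, 12.83 and 13.00, against 11.93, 12.13, 11.95, 12.17 and 11.67. These groups did not overlap either (0.75, SE 0.135, 1.68-fold; limma, adjusted p = 0.000226). At 28 days the PB livers read 12.70, 12.90, 12.12, 12.42 and 12.89, against 12.36, 12.01, 11.96, 11.81 and 11.92. Replicate 3 of PB overlapped the controls, and the difference was 0.59 (SE 0.135; limma, adjusted p = 0.00954). The 28-day call was lost without replicate 2 or replicate 5 of the PB livers, at an adjusted p of up to 0.0581 in limma.

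The Ugdh upstream region is shown because it spells the element core on both strands. These are the 250 bases before the start, on the minus strand of GRCm38.p6 (RefSeq), at chr5:65435843-65436092, with both matches to TGACNNNGC in capitals, the second being a match on the opposite strand:
Ugdh: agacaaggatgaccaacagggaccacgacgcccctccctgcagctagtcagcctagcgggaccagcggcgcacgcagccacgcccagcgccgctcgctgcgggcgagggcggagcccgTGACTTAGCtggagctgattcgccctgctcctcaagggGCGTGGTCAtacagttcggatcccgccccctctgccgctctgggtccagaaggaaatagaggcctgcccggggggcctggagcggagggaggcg
The matches start 132 and 94 bases before the start site. Upstream matches were also found for Gclm, 134 bases before the start, and for 1 of 3 Txnrd1 starts, 92 bases before it. They are shown as 41-base windows read on the strand of the gene, both matches being on the opposite strand, at chr3:122245407-122245447 for Gclm and chr10:82859098-82859138 for Txnrd1:
Gclm: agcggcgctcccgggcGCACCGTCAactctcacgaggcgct
Txnrd1: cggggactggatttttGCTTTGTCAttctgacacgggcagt
Srxn1 had a match 28 bases after its start. Promoters of 8 of the 10 genes were matched in the RefSeq table, Gclc and Gsr being the others. Of their 10 promoter windows, each 250 bases before to 50 after a start, 4 held a match, against 12.4% of all 32851 windows of that length. Since 3 of the 10 windows belong to Txnrd1, they are not independent, and the share was not tested. In these windows Cbr3, Gpx2 and Nqo1, the genes with the largest rises, were without a match. Txnrd1, which passed in no treated-against-control comparison, had a match at 1 of its 3 starts. Sequence outside the windows was not searched, so a missing match here does not show that a gene lacks the element.

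Ephx1, the microsomal epoxide hydrolase, rose with DCB and with PBO. The DCB livers read 12.84, 13.23, 13.23, 13.24 and 13.46, against a tight corn oil group at 12.44, 12.47, 12.55, 12.39 and 12.45. The difference was 0.74 (SE 0.179, 1.67-fold; limma, adjusted p = 0.00544), without overlap. PB livers lay above all water livers at 56 days (13.12 to 13.58 against 12.51 to 12.80), but the Ephx1 differences of 0.61 at 28 and 0.64 at 56 days did not pass over all groups. Fitted on the groups of the comparison alone they did (limma, adjusted p = 0.0115 and 0.00227).

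PBO, an inhibitor of cytochrome P450 enzymes, raised Ephx1 and Ugdh against its Co2 cohort, 2 of 10 where 0.489% of all genes rose. Ephx1 read 11.93, 12.71, 12.42 and 12.49 in PBO livers, against 11.16, 11.53, 11.54, 11.82 and 11.44 in Co2. The difference was 0.89 (SE 0.189, 1.86-fold; limma, adjusted p = 0.00485), without overlap. Ugdh read 12.00, 12.70, 12.61 and 12.33, against 11.39, 11.78, 11.66, 11.56 and 11.66, also without overlap, as for 1.51% of all genes (0.80, SE 0.143, 1.74-fold; limma, adjusted p = 0.000349). Both calls were lost when only the PBO and Co2 livers were fitted (limma, adjusted p = 0.0718 for Ephx1 and 0.0689 for Ugdh), and that of Ephx1 also with array weights (0.77; limma, adjusted p = 0.0525). Co2 was the lowest of the 9 control groups for Nqo1, Txnrd1, Gclm, Ephx1, Gsr and Ugdh. Its Ephx1 mean was 11.50, where the other 4 C57BL CMC cohorts had 12.14 to 12.72. Set against the mean of those 4 cohorts, a comparison chosen after seeing the data, PBO differed by -0.02 in Ephx1 (limma, adjusted p = 0.945) and by 0.39 in Ugdh (limma, adjusted p = 0.00695). Against them Srxn1 was 0.40 higher, and Txnrd1 (-0.47), Gclc (-0.44) and Gsr (-0.59) were lower. In that comparison 33% of all genes passed, and a difference between cohorts cannot be told apart from one due to PBO. The part of the Co2 level in the PBO results was not tested.

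The PBO livers differed among themselves. Replicate 2 was the highest in 7 of the 10 genes, among them Gsr at 9.61 (others 8.13 to 8.52), Srxn1 at 9.37 (8.64 to 8.89) and Gclm at 11.75 (11.31 to 11.37). The same liver had the highest Cyp2b10, 11.89 against 6.07 to 8.06, and the highest Cyp1a1, the classical target of the aryl hydrocarbon receptor, 10.37 against 5.35 to 8.89. Their part in these values was not tested.

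**Figure D4:**
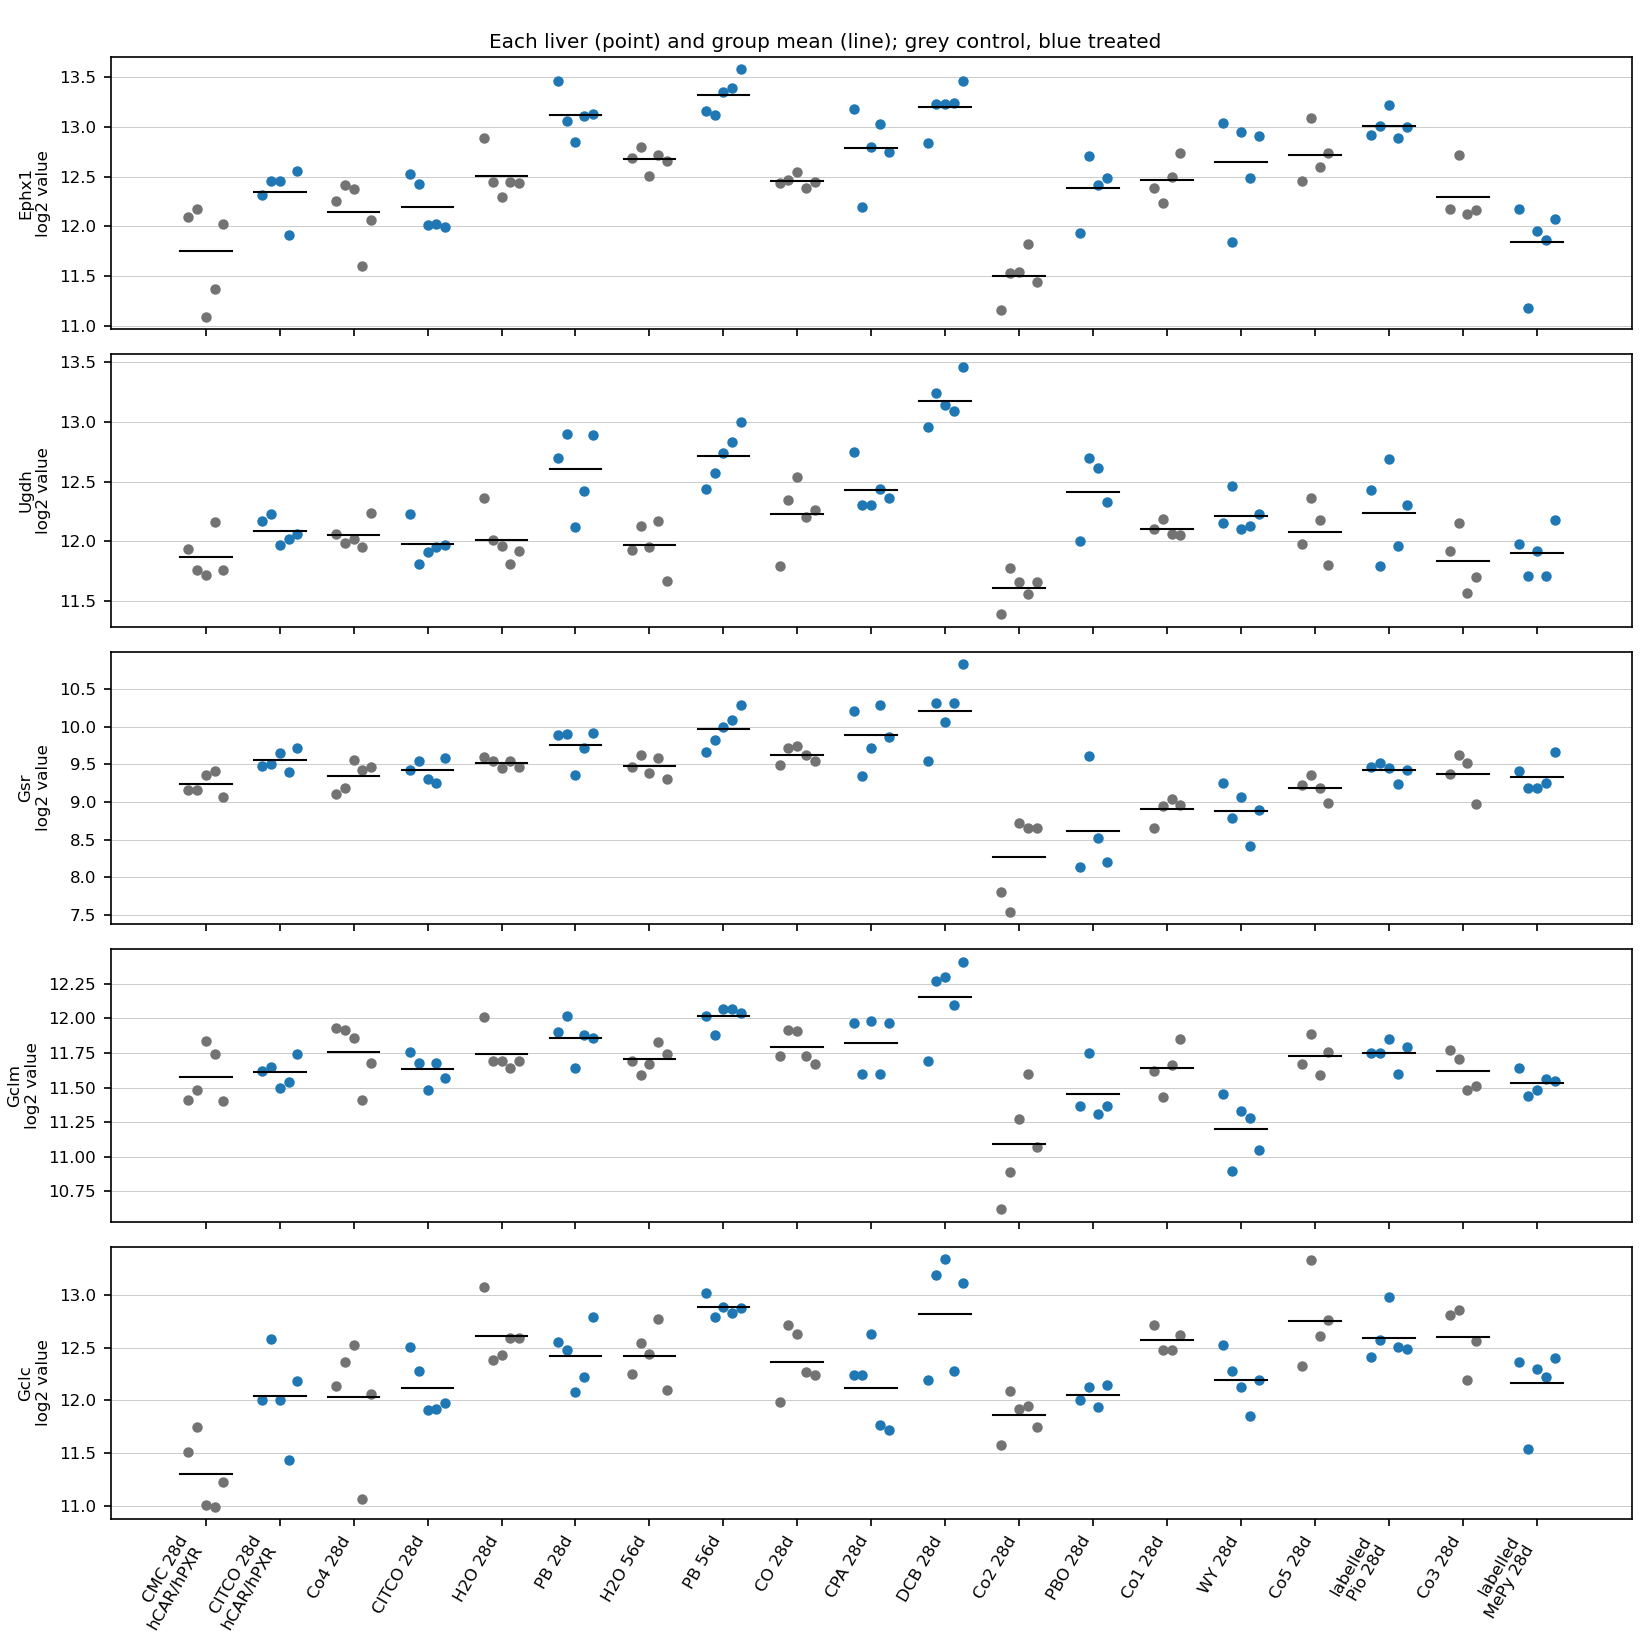
Log2 value of Ephx1, Ugdh, Gsr, Gclm and Gclc (y axes) in each liver, with group means as lines, for each control group (grey) followed by its treated groups (blue) along the x axis. The Co2 cohort, the control of PBO, lies lowest among control groups for Ephx1 (mean 11.50), Ugdh (11.61), Gsr (8.27) and Gclm (11.09).

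Control groups differed elsewhere too. Co4 exceeded the mean of the other C57BL CMC cohorts in Txnrd1 (0.30; limma, adjusted p = 0.0107) and Gsr (0.41; limma, adjusted p = 0.0409), 2 of 10 where 9.31% of all genes were higher. Neither passed when only these cohorts were fitted. Co4 was not apart from every cohort. Its Gsr mean was 9.35, beside 9.37 in Co3, 9.19 in Co5, 8.90 in Co1 and 8.27 in Co2. Its Txnrd1 mean was 10.50, beside 10.47 in Co5, 10.27 in Co3, 10.15 in Co1 and 9.91 in Co2. In acute phase genes the Co4 livers did stand apart. All 10 were higher, with a mean level of 12.78 to 14.25 against 8.72 to 12.40 over the other 4 cohorts. Their part in the Txnrd1 and Gsr differences was not tested. Gclc ran from a mean of 11.29 in hCAR/hPXR controls to 12.76 in Co5, the widest span of control means in the list, 1.46. The hCAR/hPXR controls did not pass against Co4 for any gene of the list (0.126% of all genes passed in either direction). The same held for water at 56 against 28 days (0.033%) and for corn oil against water (0.115%).

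Across the 10 genes, all were higher with PB at 56 days, with a median difference of 0.54 beside -0.005 over all genes. For 8 of the 10, all but Nqo1 and Gpx2, every PB liver lay above every water liver, as for 1.59% of all genes, although 3 passed. PB replicate 5 was the highest of its group in 8 of the 10 genes, with Nqo1 at 8.84, Srxn1 at 9.79, Gsr at 10.29 and Ugdh at 13.00. In Cyp2b10 that liver was not apart, at 13.61 in a range of 13.33 to 13.77. With DCB the median difference of the list was 0.71, beside 0.015 over all genes. CITCO livers showed no gene of the list past the threshold in hCAR/hPXR mice (0.0989% of all genes passed) or in C57BL mice (0.0055%), nor in the difference between the strains (0.0055%). In hCAR/hPXR mice Gclc (0.74) and Ephx1 (0.60) were the farthest from 0, with 95% intervals of 0.34 to 1.14 and 0.24 to 0.95. Without CITCO replicate 4 of that strain, the lowest in Gclc at 11.43, the Gclc difference was 0.90 and passed (limma, adjusted p = 0.0454). No gene of the list passed in livers labelled pioglitazone (0.022% of all genes) or labelled methapyrilene (0.181%). Against the mean of the other 4 C57BL CMC cohorts, chosen after seeing the data, 5 genes were higher in livers labelled pioglitazone, namely Ephx1 (0.91), Gsr (0.45), Srxn1 (0.39), Ugdh (0.33) and Txnrd1 (0.30), with adjusted p in limma up to 0.0418, where 8.26% of all genes passed. Gsr passed in the same way with CITCO in C57BL mice (0.49; limma, adjusted p = 0.0116), where 15.6% of all genes passed. In both cases the other cohorts include Co2, the lowest in Gsr at 8.27. Gsr averaged 9.42 both in livers labelled pioglitazone and with CITCO in C57BL mice. Their own cohorts averaged 9.19 (Co5) and 9.35 (Co4), and Co3 averaged 9.37. The acute phase mean was 10.40 to 12.25 in those CITCO livers against 12.78 to 14.25 in Co4, and 11.68 to 12.61 in CITCO livers of hCAR/hPXR mice against 13.17 to 14.44 in their controls; its part in the CITCO results was not tested.

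DCB and CPA share the corn oil group, so they were also set against each other directly. CPA livers were lower in Cbr3 (-4.91; limma, adjusted p = 1.6e-22), Nqo1 (-1.29; limma, adjusted p = 0.00016), Gpx2 (-1.12; limma, adjusted p = 0.000826), Ugdh (-0.75; limma, adjusted p = 6.66e-05) and Gclc (-0.70; limma, adjusted p = 0.0253). These are 5 of 10 genes, where 2.37% of all genes were lower. The other 5 differences, none beyond the threshold, were also below 0, the nearest to 0 being -0.07. The DCB response, treated minus its own control, exceeded the 28-day PB response in Cbr3 by 3.99 (SE 0.436; limma, adjusted p = 2.24e-10) and in Gpx2 by 2.28 (SE 0.333; limma, adjusted p = 4.36e-06), 2 of 10 where 0.638% of all genes did. The Nqo1 response was 1.15 larger with DCB (95% interval 0.46 to 1.83) and did not pass. The CPA and PBO responses did not pass against the 28-day PB response for any gene of the list (1.43% and 0.154% of all genes passed), nor did WY against labelled pioglitazone (3.02%). These compounds were given at different doses and routes, each at 1 dose, so the sizes are not matched by dose.

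Groups with high Cyp2b10 differed in Cbr3. Mean Cyp2b10 was 13.57 and 13.56 in PB livers at 28 and 56 days, 12.37 with DCB, 11.88 with CITCO in hCAR/hPXR mice, 11.61 in the livers labelled pioglitazone and 11.49 with CPA, where control groups had 5.55 to 6.62. The corresponding Cbr3 means were 6.92, 8.68, 11.03, 5.50, 5.17 and 6.13. Differences between these responses were tested after the pattern had been seen. The Cbr3 response to DCB exceeded that of livers labelled pioglitazone by 5.29 (limma, adjusted p = 4.41e-15) and that of CITCO in hCAR/hPXR mice by 5.30 (limma, adjusted p = 8.59e-16). In both, Nqo1, Gpx2 and Ugdh passed too, 4 of 10 genes (0.363% and 0.511% of all genes were higher). The Cbr3 response to PB at 56 days exceeded those 2 responses by 3.07 (limma, adjusted p = 1.51e-05) and 3.08 (limma, adjusted p = 5.48e-06), the only gene of the list to pass (0.0934% and 0.0495%). These tests use the spread shared by all groups, while Cbr3 had an SD of 1.64 in the PB livers at 56 days.

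**Figure D5:**
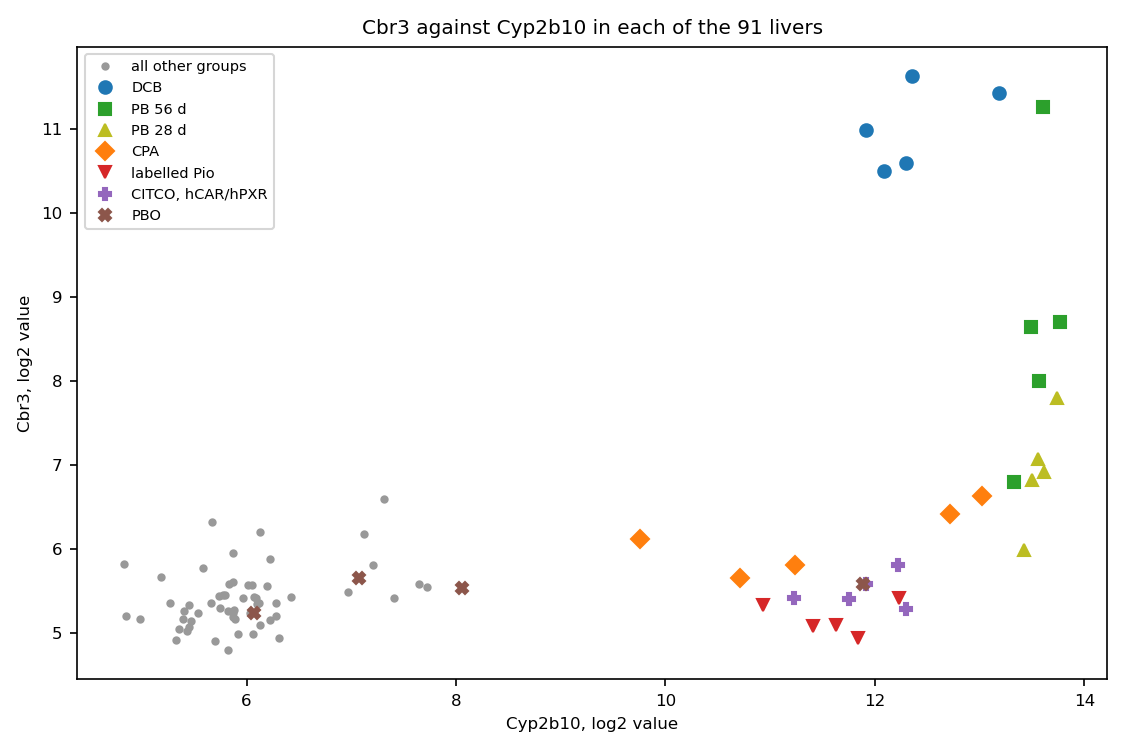
Log2 value of Cbr3 (y axis) against Cyp2b10 (x axis) in each of the 91 livers, with 7 treated groups marked and all others as grey points. Livers with Cyp2b10 of 10.93 or more range in Cbr3 from 4.94 (labelled pioglitazone) to 11.64 (DCB).

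Of the genes that regulate the pathway, few passed. Nfe2l2 itself, which is controlled mainly through its protein, differed by 0.08 with DCB (95% interval -0.22 to 0.39) and by -0.05 with PB at 56 days (-0.36 to 0.26). Its largest difference was 0.37 with WY (limma, adjusted p = 0.138), and it passed in none of the 10 comparisons. Keap1 passed in none either, with differences from -0.05 to 0.24. Of the 10 regulators, Bach1, a repressor that competes at antioxidant response elements, fell with DCB (-0.68; limma, adjusted p = 0.000435) and with CPA (-0.80; limma, adjusted p = 3.12e-05). Bach1 was itself 0.66 higher in corn oil than in water controls. Maff, a small MAF partner, fell with CPA and Rbx1, a part of the ubiquitin ligase that KEAP1 serves, fell with WY.

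Around the 10 genes, 63 further genes of the pathway and its supply routes were listed and 51 were measured. With DCB 13 rose and 1 fell, where 2.15% of all genes rose and 1.67% fell. Among carbonyl and quinone reductases 5 of 9 rose, led by Cbr1 (1.81; limma, adjusted p = 8.17e-11), a close relative of Cbr3 on the same chromosome, then Blvrb (1.38; limma, adjusted p = 4.08e-10), a flavin and biliverdin reductase, and Ptgr1 (0.87). Of 8 glutathione supply genes, Slc7a11, the cystine importer, rose by 1.5 (limma, adjusted p = 3.24e-09) and Gpx4 by 0.73. Of 4 heme and iron genes, Slc48a1, a heme transporter, rose by 1.65 (limma, adjusted p = 1.14e-13) and Fth1, the ferritin heavy chain, by 0.38. Pgd (0.84), which makes NADPH, Txn1 (0.51), Entpd5 (0.87) and Ugp2 (0.52), which makes UDP-glucose for Ugdh, rose as well.

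Elsewhere fewer of the 51 moved. With PB at 56 days 5 rose (0.429% of all genes did): Aox1 and Cbr1 (each by 0.90), Ugt2b35 (0.84), Entpd5 (0.73) and Blvrb (0.61). None passed at 28 days. With CPA 4 rose (Cbr1 by 0.79, Glrx by 0.78, Blvrb by 0.52 and Txn1 by 0.30) and 7 fell, among them Bach1 and Aldh3a2 (-0.89), where 2.62% of all genes rose and 2.7% fell. With WY 5 rose, among them Aldh3a2 (0.92), a fatty aldehyde dehydrogenase, Pgd (0.91) and Cbr1 (0.72), and 3 fell, which is near the shares of all genes that rose (5.55%) and fell (5.09%). PBO raised Aldh3a2 (0.94) and Entpd5 (0.64), where 0.489% of all genes rose, and CITCO raised Ugt2b35 (0.73) in hCAR/hPXR mice (0.077%). None passed with CITCO in C57BL mice or in the livers labelled pioglitazone or methapyrilene. Cbr1 rose in 4 comparisons (DCB, PB at 56 days, CPA and WY) and Blvrb in 3 (DCB, PB at 56 days and CPA).

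The 10 genes varied together only in part. Over the 19 group means, which share control levels and rest on few strong groups, Nqo1 and Cbr3 correlated at r = 0.927 and Gclm and Gsr at 0.899, while Txnrd1 and Gpx2 gave -0.0698. The correlation of each gene with the mean of the other 9 was highest for Ugdh (0.917), Nqo1 (0.889) and Cbr3 (0.874) and lowest for Txnrd1 (0.172). Among 3883 genes outside the list whose group means spanned at least 1 on the log2 scale, those most like the mean of the 10 were Slc48a1 (r = 0.95), Blvrb (0.948), Cbr1 (0.931), Thnsl2 (0.928) and Gsta2 (0.906), a glutathione transferase. The closest gene to Gsr was Akr1c19 (0.977), that to Nqo1 was Cbr1 (0.945), that to Cbr3 was Abcc12 (0.934) and that to Gpx2 was Gipc2 (0.902). These correlations over 19 groups are descriptions.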

How the data were processed

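RNA of mouse liver was labelled with biotin and hybridised to Affymetrix arrays, per the labels' protocols. The authors deposited log2 values per probe set made with RMA, per the submitters' processing notes; its version and any batch are not given in the sources used here. RMA equalises the distributions of the arrays, so a change in total RNA would not be seen, and it compresses large folds near the ends of the scale (2.61 to 15.34). Of 45037 probe sets, 34945 had 1 gene symbol in the platform annotation, 932 had several and 9160 were unnamed here; for each of 18193 genes the brightest of its single-symbol probe sets was used. A means model over all 91 arrays in 19 groups (72 residual degrees of freedom) was fitted with limma 3.58.1 in R 4.3.3, with a mean-variance trend. Contrasts took each treated group minus the control its labels name, differences of such contrasts, and control groups against each other. Tests were two-sided with Benjamini-Hochberg adjustment over all genes of a comparison, and an adjusted p under 0.05 counted as passing. The procedure was tested on simulated data. The number of arrays limits the precision.

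The study's design names groups of 5 randomly assigned mice. Replicate numbers did not pair the livers (correlations of same-numbered deviations -0.321 to 0.223, no comparison with every pair above 0.1), so no replicate block was used. No arrays were identical. The members, gene lists, naming rule and tests were chosen with earlier results of these data known. Named were all 10 genes, Nfe2l2 and Keap1, up to 3 passing members per pathway list with the largest change, receptor marker genes, and the genes whose group means were most like the list's; other names were chosen after their values were seen. Alternatives were the mean of all probe sets, every probe set alone, a minimum mean of 5, centring, array weights, only the groups of a comparison, a replicate block, each liver left out, and, chosen after seeing the data, the other CMC cohorts as control. Promoters of RefSeq (GRCm38.p6) were searched for TGACNNNGC. Marker lists of other cell types were measured in the same fit.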

Additional observations from a re-analysis of the deposited data

Results flagged for a closer look

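In 190 sets of 1 gene in 1 group, 10 values, from 9 livers, stood farther from the rest of their group than Dixon's 95% limit, where chance alone gives about 1 in 20 sets. Ephx1 was 12.72 in Co3 replicate 2 (others 12.12 to 12.17), and Ephx1 was 12.89 in water replicate 1 at 28 days (others 12.30 to 12.45). In that same water liver Gclm was 12.01 (11.64 to 11.69). Gclm was also apart in PBO replicate 2 at 11.75 (11.31 to 11.37) and, on the low side, in PB replicate 2 at 56 days at 11.88 (12.02 to 12.07). Gclc was 11.54 in labelled methapyrilene replicate 2 (12.22 to 12.40) and 12.98 in labelled pioglitazone replicate 3 (12.41 to 12.57). Nqo1 was 7.28 in Co2 replicate 2 (6.56 to 6.74), Gpx2 was 5.10 in CITCO replicate 4 of the hCAR/hPXR mice (5.68 to 5.87), and Txnrd1 was 10.76 in hCAR/hPXR control replicate 4 (10.27 to 10.37).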

How the results depend on the processing

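Of the 16 calls, 12 were lost in no refit that left out 1 liver, 9 under no other alternative, and 7 under neither: Cbr3, Nqo1, Gpx2, Ephx1 and Ugdh with DCB, and Cbr3 and Ugdh with PB at 56 days. No call changed direction when a liver was left out. The counts that follow show how calls depend on the processing and are not results about the list. Where no share of all genes stands beside a count, its change cannot be told apart from a change over all genes. The mean of the other 4 CMC cohorts as control was chosen after seeing the data. With it 5 genes passed for PBO (33% of all genes), 5 for labelled pioglitazone (8.26%) and 1 for CITCO in C57BL mice (15.6%). WY gave 4 and labelled methapyrilene 1, for which no share of all genes is given here. The sign turned for Ephx1 (-0.02), Gclc (-0.44) and Gsr (-0.59) with PBO and for Gsr with labelled methapyrilene (0.41). Gsr averaged 9.34 in livers labelled methapyrilene, 9.37 in their own Co3 and 8.27 in Co2, the lowest control group. The cause was not tested. A dimmer Txnrd1 probe set reversed the sign with WY (-0.61). Fitting only the groups of a comparison gave 0 genes for CPA, 0 for PBO, 0 for Co4 against the other cohorts, 2 for CPA against DCB and 4 for PB at 28 days; it also left fewer residual degrees of freedom. Array weights gave 7 for PB at 56 days, 4 for PB at 28 days, 2 for CPA, 1 for PBO, and 1 each for CPA against the PB response, WY against labelled pioglitazone, and hCAR/hPXR controls against Co4. With array weights Gclc and Gclm passed with DCB as well. CPA against the PB response also gave 1 after centring each array and 1 with a minimum mean of 5. Co4 against the other cohorts gave 4 with every probe set and 4 with that minimum. WY gave 2 with every probe set and 0 with the mean of probe sets. With the replicate block, Co4 against the other cohorts gave 1 in place of 2, and no other count of the list changed. Leaving out 1 liver gave 6 to 8 genes for DCB, 4 to 6 for CPA against DCB, 2 to 3 for PBO, 2 to 3 for DCB against the PB response, 3 in every case for PB at 56 days, 1 to 4 for PB at 28 days, 1 to 2 for CPA, 0 to 1 for WY, 0 to 1 for CITCO in hCAR/hPXR mice, 1 to 3 for Co4, and 0 to 1 for CPA against the PB response, the PB times and the hCAR/hPXR controls against Co4. Dim genes near the array background, such as Gpx2 and Cbr3 in control livers, have folds that the scale can compress.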
